A study of Triticum aestivum with 6 samples.

Results

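Cereal grains store proteins that block foreign or endogenous digestive enzymes. Such inhibitors bind the active site of proteases, amylases or xylanases, and in grain they are known both as storage proteins and as part of the defence against insects and fungi. WZCI encodes a chymotrypsin inhibitor of the serpin family, whose members trap a protease by acting as a substrate that stays bound to it. IMA1 encodes a monomeric alpha-amylase inhibitor, known to act on insect amylases, and XIPI a xylanase inhibitor protein that acts on fungal xylanases. The 3 genes were chosen by their symbols as the rows WZCI, IMA1 and XIPI among the 102602 gene identifiers of the count table. In a RefSeq gene table of the IWGSC CS RefSeq v2.1 assembly, 2 of the 3 symbols, IMA1 and XIPI, matched a synonym.

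RNA was sequenced from inferior grains of bread wheat, Triticum aestivum, cultivar Xinong 538, grown in the field. Inferior grains set later in a spike and usually fill less. There were 3 libraries titled SPD and 3 titled CK. The labels spell out neither title, and all 6 libraries carry one treatment text that names exogenous spermidine, a polyamine, and one stage entry that names days 8 and 16 after anthesis. Whether SPD against CK sets treated against untreated grains is therefore not given in the sources used here, and stage could not be separated. Nothing says whether libraries of a group came from separate plants or plots, so each p-value is set against a spread between libraries that may be technical.

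Totals ran from 10561224 to 13088727 counts per library. SPD replicate 3 differed most from the rest: on the first principal component of log2 CPM (a gene's counts relative to the library total), which held 35.4% of the variance, it lay at 140, against -42.6 to -20.7 for the rest. All 7 endosperm marker genes looked for (WAXY, AGP-L, AGP-S, GLU-D1-2B, AVNLA, PINA and PINB) had counts in every library, GLU-D1-2B with as few as 31. Their summed level was 14003 to 18046 CPM in SPD and 15030 to 15759 CPM in CK, with SPD replicate 1 lowest and SPD replicate 3 highest of all libraries. AVNLA, an avenin-like storage protein, had 6276 CPM in SPD replicate 3 and 3117 to 4096 CPM elsewhere, whereas AGP-L, a subunit of ADP-glucose pyrophosphorylase, was lowest there, at 918 CPM against 1060.2 to 1222 CPM elsewhere. WAXY, at 1840 CPM there, lay above only SPD replicate 1 (1755 CPM), while PINA was highest there, at 3517 CPM. The excess of SPD replicate 3 in CPM was largest in AVNLA, so its sum shows no shared rise of the markers. Of 5 embryo markers looked for, 1 was in the table, EM. It had 0 counts in every library, which at 3 counts per library allows a level of up to 0.229 to 0.284 CPM. Only 72925 of the 102602 rows had any count, so rows without counts were common and no embryo content is read from EM.

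None of the 3 inhibitor genes passed the test between SPD and CK after adjustment over the 50136 genes tested. WZCI lay higher in SPD, with a log2 fold change, SPD over CK, of 0.48 (SE 0.20, 3 libraries a group). XIPI lay lower, at -0.69 (SE 0.31), and IMA1 was close to even, at -0.12 (SE 0.10). The quasi-likelihood test of edgeR gave all 3 an adjusted p of 0.997, and it called 0 of the 50136 genes, or 0%. Without adjustment, 2 of the 3 lay below 0.05 in the edgeR test, as did 1800 of all genes tested, or 3.59%. WZCI, at 0.0364, was 1 of 955 such genes with a higher level in SPD, or 1.90%, and XIPI, at 0.0470, was 1 of 845 with a lower one, or 1.69%. Those 2 were among the genes chosen with earlier results of these data known, so the count is a description. The Wald test of DESeq2 called 3 genes and limma-voom 0 (1547 and 1787 at an unadjusted p under 0.05), in both cases without WZCI, IMA1 and XIPI. SPD and CK values overlapped in all 3 inhibitor genes, whereas they did not overlap in 9.48% of the genes tested. Among the 3 genes 1 fitted value was positive and 2 were negative, with IMA1 in the middle at -0.12. The median over all genes tested was 0.0048.

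WZCI had 2835, 2905 and 4898 CPM in SPD replicates 1 to 3, against 2180.2, 2918 and 2593 CPM in CK replicates 1 to 3. SPD replicate 3 stood far above the other 5 libraries. SPD replicates 1 and 2 lay close to each other and below CK replicate 2, the highest CK library, so the groups overlapped. The means were 3546 ± 1171 CPM in SPD and 2564 ± 370 CPM in CK (SD, n = 3 each). The 95% interval of the log2 fold change ran from 0.04 to 0.93 before adjustment. Leaving out SPD replicate 3 brought the log2 fold change of WZCI to 0.16 (adjusted p = 0.997 by edgeR), and with any other library left out its lowest value was 0.37 (CK replicate 1 left out) and its highest 0.63 (SPD replicate 1 left out). With robust estimation of the spread in edgeR, the unadjusted p of WZCI was 0.0944 in place of 0.0364. Over all 16 alternative fits it ran from 0.00888 (edgeR without a filter) to 0.153 (edgeR without CK replicate 1). The lowest adjusted p among them was 0.583. Of all counts, WZCI held 0.490% in SPD replicate 3, while its share elsewhere was 0.218% to 0.292%.

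Markers of green tissue, as in the grain's pericarp, were high in the same library. PORA, PSBO, PSBP, PSBR, PETC and WHAB1.6 serve chlorophyll synthesis and the photosynthetic membranes. Their summed level was 624.4, 438.4 and 876.5 CPM in SPD replicates 1 to 3, against 448.7, 552.2 and 429.2 CPM in CK replicates 1 to 3. All 6 had positive fitted values and none was called. The share of positive values over all genes was not counted, and the median log2 fold change over all genes tested was 0.0048. WHAB1.6 had only 8 to 29 counts per library. SPD replicate 3 held both the highest sum and the highest WZCI level. SPD replicate 1 had the next highest sum, but less WZCI than SPD replicate 2 and CK replicate 2. The endosperm markers AVNLA, PINA and GLU-D1-2B were also highest in SPD replicate 3, while the other endosperm markers were not. The part of green tissue in the WZCI values was not tested. In bulk grain, a change in the number of cells of a type and a change in RNA per cell cannot be told apart.

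IMA1 had 2525, 3110.2 and 3074 CPM in SPD replicates 1 to 3, against 3330.1, 3183 and 3027 CPM in CK replicates 1 to 3. SPD replicate 1 was the lowest library, and the remaining 5 lay within a narrow band in which the groups overlapped. The means were 2903 ± 328 CPM in SPD and 3180.0 ± 152 CPM in CK (SD, n = 3 each). The log2 fold change of IMA1 had a 95% interval of -0.35 to 0.11, which leaves out a change of 2-fold in either direction. Without SPD replicate 1 it was -0.018, and with any other library left out it ran from -0.18, the value without SPD replicate 3, to -0.09.

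XIPI had 49.8, 117 and 80.0 CPM in SPD replicates 1 to 3, against 118, 192 and 91.2 CPM in CK replicates 1 to 3. The lowest library was again SPD replicate 1 and the highest was CK replicate 2. SPD replicate 2 lay next to CK replicate 1 and above CK replicate 3, so the groups overlapped. The means were 82.2 ± 33.5 CPM in SPD and 134 ± 52.3 CPM in CK (SD, n = 3 each). The 95% interval of the log2 fold change ran from -1.37 to -0.01 before adjustment. It was -0.34 without CK replicate 2, -0.42 without SPD replicate 1 and -1.03 without SPD replicate 2 (adjusted p = 0.9999, 0.9995 and 0.549 by edgeR). Each of these libraries moved the fitted value, and the direction held without any of them. Without SPD replicate 3 the value was -0.69, as with all 6 libraries. With robust estimation the unadjusted p of XIPI was 0.148 in place of 0.0470. Over all 16 alternative fits it ran from 0.00674 (edgeR with replicate number as a block) to 0.294 (edgeR without CK replicate 2). The lowest adjusted p among them was 0.549.

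**Figure D1:**
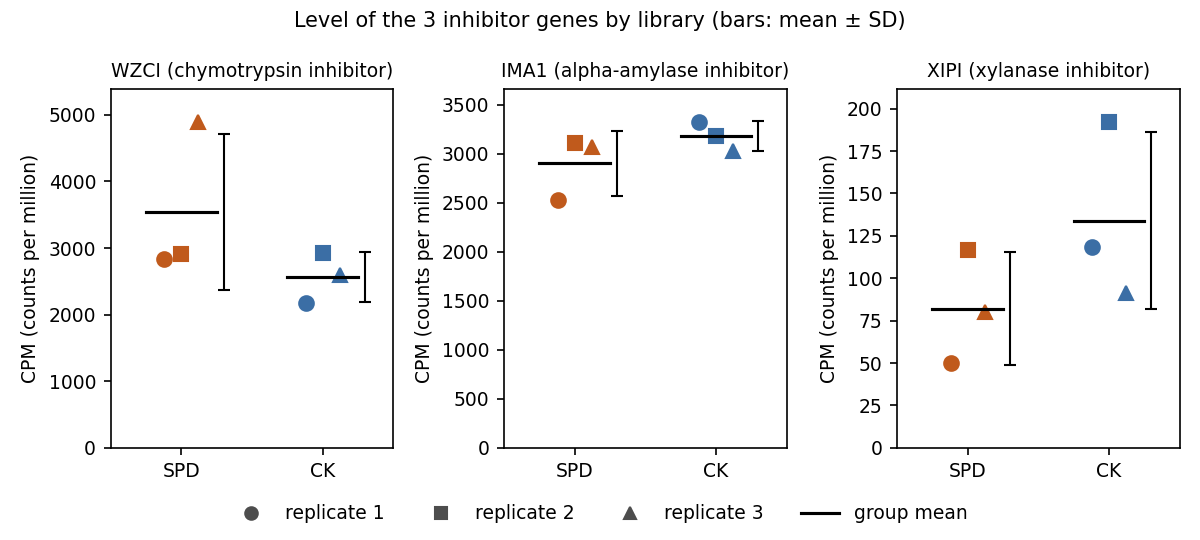
CPM (vertical axis, from 0) of WZCI, IMA1 and XIPI in each SPD and CK library; points are libraries, short lines are group means and bars are mean ± SD (n = 3 each). SPD and CK overlap in all 3 genes, and WZCI in SPD replicate 3, at 4898 CPM, lies above all other libraries.

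**Figure D2:**
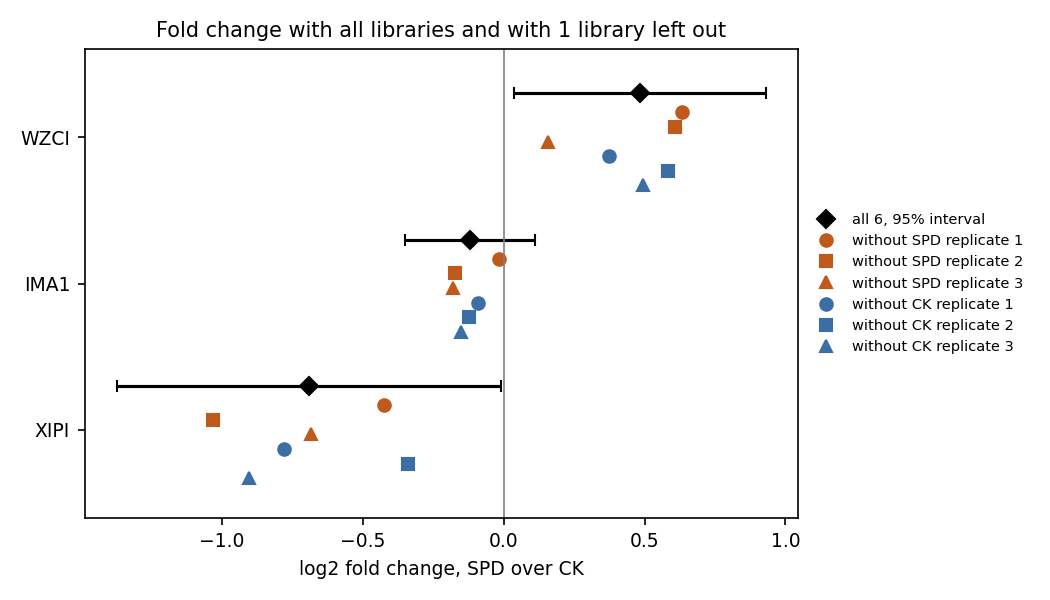
Log2 fold change of SPD over CK (horizontal axis) for each inhibitor gene; diamonds are the fit to all 6 libraries with its 95% interval, and other symbols are fits with 1 library left out. Every symbol of WZCI lies above 0 and every symbol of IMA1 and XIPI below 0; WZCI without SPD replicate 3 lies at 0.16.

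Over the libraries XIPI varied most and IMA1 least. Over all 6 libraries, the coefficient of variation (SD over mean of CPM) was 30.9% for WZCI, 9.01% for IMA1 and 44.9% for XIPI. The highest library exceeded the lowest by 2.25-fold in WZCI, 1.32-fold in IMA1 and 3.86-fold in XIPI. XIPI varied to a like extent within both groups, with 40.8% in SPD and 39.1% in CK. WZCI had 33.0% in SPD and 14.4% in CK, and IMA1 had 11.3% in SPD and 4.77% in CK. The higher SPD value rests on 1 library in each of these 2 genes, SPD replicate 3 for WZCI and SPD replicate 1 for IMA1. Differences in spread between genes or groups were not tested.

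Counting error was a small part of these spreads. XIPI had 609 to 2129 counts per library, for which counting alone gives a coefficient of variation of 2.17% to 4.05%. WZCI had 27245 to 51729 counts and IMA1 30903 to 41614, for which counting alone gives at most 0.61%. Among the 18382 genes averaging 10 CPM or more, 5.83% had a larger coefficient of variation over the 6 libraries than WZCI, 83.3% a larger one than IMA1 and 1.58% a larger one than XIPI. The median of those genes was 14.3%. The spread within groups that edgeR fitted, its biological coefficient of variation, was 20.4% for WZCI, 13.9% for IMA1 and 27.6% for XIPI. In that fit each gene's value is drawn towards the trend over all genes. At their abundance the trend over all genes lay at 16.1% for WZCI and IMA1 and at 15.9% for XIPI, so IMA1 was below the trend and the others above it. CPM are not scaled to transcript length, so no order of transcript levels is read between the 3 genes. Each row may also share reads with near-identical copies in the wheat subgenomes, which makes the level of a single copy uncertain.

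A ratio of one gene's counts to another's within a library does not depend on how the library is scaled, and its change between groups does not depend on transcript length. The count ratio of WZCI to IMA1 was 1.12, 0.934 and 1.59 in SPD replicates 1 to 3, against 0.655, 0.917 and 0.857 in CK replicates 1 to 3. All 3 SPD ratios lay above all 3 CK ratios, although each gene alone overlapped between groups. Among single genes tested, 9.48% did not overlap between groups, and the share over pairs of genes was not counted. The mean log2 ratio was 0.25 ± 0.39 in SPD and -0.32 ± 0.26 in CK (SD, n = 3 each), a difference of 0.57, or 1.48-fold. The two-sided exact permutation test gave p = 0.1, the smallest that 3 against 3 libraries allow, and 0.3 after adjustment over the 3 ratios tested. The difference was 0.35 without SPD replicate 3, 0.42 without CK replicate 1 and between 0.61 and 0.74 with another library left out.

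The gap between the groups was narrow. WZCI made up 48.3% of the WZCI and IMA1 counts in SPD replicate 2 (95% Wilson interval 47.9% to 48.6%), the lowest SPD library. In CK replicate 2, the highest CK library, it made up 47.8% (47.5% to 48.2%). These neighbours overlapped within counting error, which is all that the intervals cover. The extremes were far apart, at 61.4% in SPD replicate 3 and 39.6% in CK replicate 1.

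For XIPI to IMA1 the count ratio was 0.0197, 0.0375 and 0.0260 in SPD replicates 1 to 3, against 0.0355, 0.0604 and 0.0301 in CK replicates 1 to 3. SPD replicate 2 lay above CK replicates 1 and 3, so the groups overlapped. The mean log2 ratio was -5.22 ± 0.47 in SPD and -4.64 ± 0.52 in CK, a difference of -0.58 (two-sided exact permutation p = 0.3, adjusted 0.3). With 1 library left out, the difference ran from -0.83 (SPD replicate 2 left out) to -0.29 (CK replicate 2 left out). Leaving out SPD replicate 1 gave -0.36, and leaving out SPD replicate 3 gave -0.56.

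For WZCI to XIPI, the pair with the widest change, the count ratio was 57.0, 24.9 and 61.2 in SPD replicates 1 to 3, against 18.4, 15.2 and 28.4 in CK replicates 1 to 3. SPD replicate 2 lay below CK replicate 3, and SPD replicates 1 and 3 lay far above every CK library. The mean log2 ratio was 5.47 ± 0.72 in SPD and 4.32 ± 0.46 in CK, a difference of 1.15, or 2.22-fold (two-sided exact permutation p = 0.2, adjusted 0.3). Among fits that left out 1 library, the smallest difference was 0.92 (SPD replicate 3 left out) and the largest 1.57 (SPD replicate 2 left out).

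**Figure D3:**
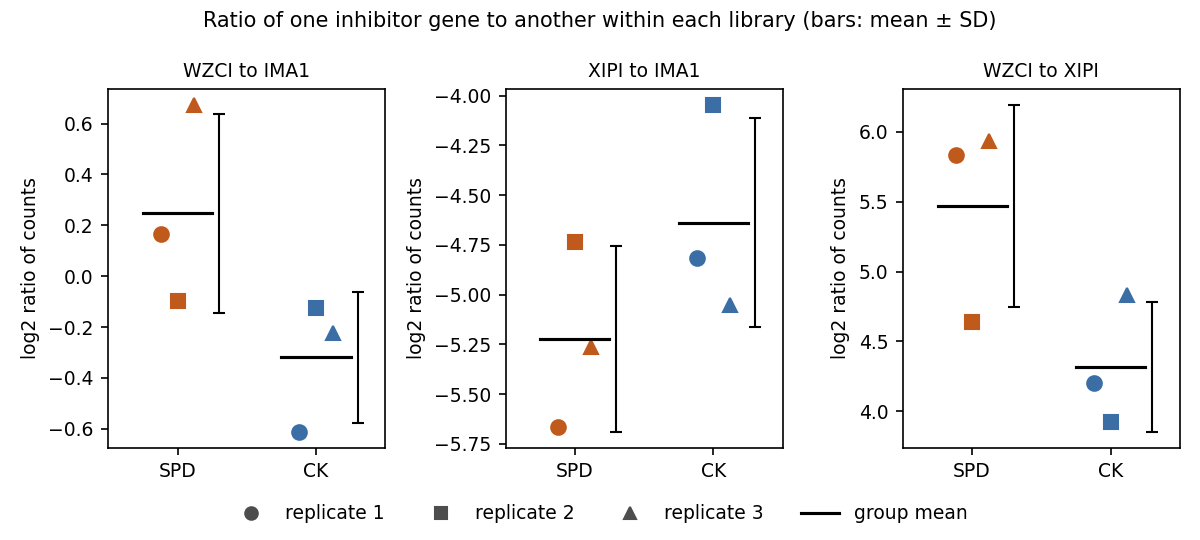
Log2 ratio of the counts of one inhibitor gene to another within each library (vertical axes, each with its own scale) in SPD and CK; points are libraries, short lines are means and bars are mean ± SD (n = 3 each). The groups are apart only in WZCI to IMA1 (two-sided exact permutation p = 0.1, adjusted 0.3). SPD replicate 2 and CK replicate 2 are nearly level there, at 0.934 and 0.917 on the linear scale.

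The 3 genes together had 5410.2, 6132 and 8052 CPM in SPD replicates 1 to 3, against 5629, 6294 and 5711 CPM in CK replicates 1 to 3. SPD replicates 1 and 3 were the lowest and the highest of all 6 libraries. The mean was 6531 ± 1366 CPM in SPD and 5878 ± 363 CPM in CK (SD, n = 3 each), and the exact permutation test, two-sided, gave p = 0.7. Without SPD replicate 3 the difference in means, SPD minus CK, was -107 CPM in place of 653 CPM. WZCI made up 60.8% of the sum in SPD replicate 3 and 38.7% of it in CK replicate 1, the ends of its range. XIPI made up 0.920% to 1.90% in SPD and 1.597% to 3.06% in CK.

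IMA1 and XIPI shared their lowest library, SPD replicate 1, while WZCI was lowest in CK replicate 1. Over the 6 libraries, Pearson's r of log2 CPM between IMA1 and XIPI was 0.79 (two-sided exact permutation p = 0.0792, adjusted over 3 pairs 0.238) and Spearman's rho was 0.77 (exact p = 0.103, adjusted 0.308). Without SPD replicate 1 and CK replicate 1, the libraries farthest from the IMA1 median, r was 0.50. Leaving out the extremes narrows the range, which can lower r by itself, so this does not show what the relation rests on. Between WZCI and IMA1 r was 0.031 (exact permutation p = 0.911, adjusted 0.911) and rho 0.029 (exact p = 1, adjusted 1), and r was 0.17 without SPD replicate 3 and CK replicate 1. Between WZCI and XIPI r was -0.18 (exact permutation p = 0.672, adjusted 0.911) and rho -0.086 (exact p = 0.919, adjusted 1), and without those libraries r was 0.44. None of the 3 pairs passed the test.

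Among 63 other genes that had a symbol and averaged 10 CPM or more, the 3 with the most similar pattern were found for each inhibitor gene by Pearson's r of log2 CPM over the 6 libraries. These r are descriptions, since all values share libraries and depth and the genes were picked for them. They cover few of the 18382 genes averaging 10 CPM or more, and likeness to the rest is not given. For WZCI they were PSBP (r = 0.89) and PSBO (0.88), water-splitting proteins of photosystem II, and BMY1 (0.88), a beta-amylase. Without SPD replicate 3 these values were 0.54, 0.58 and 0.24. PSBO had 209.6, 140.2 and 271.6 CPM in SPD replicates 1 to 3, against 126.8, 166.6 and 133.8 CPM in CK replicates 1 to 3. As in WZCI, SPD replicate 3 was the highest library and CK replicate 1 the lowest.

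For IMA1 they were CBP2, a serine carboxypeptidase (r = 0.98), PINB, the grain hardness protein puroindoline b (0.88), and WAXY, the amylose-making starch synthase (0.83). Without SPD replicate 3 they were 0.98, 0.94 and 0.94. Like IMA1, all 3 genes were lowest in SPD replicate 1. That library stayed in, and r without it was not computed, so these values do not show whether the likeness rests on it. CBP2 had 101, 166 and 163 CPM in SPD replicates 1 to 3, against 194, 159 and 148 CPM in CK replicates 1 to 3. As in IMA1, SPD replicate 1 was the lowest library and CK replicate 1 the highest.

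For XIPI they were PER1, a peroxiredoxin of seeds (r = 0.92), WAXY (0.89) and IMA1 itself (0.79), or 0.93, 0.88 and 0.87 without SPD replicate 3. Like XIPI, all 3 were lowest in SPD replicate 1. Values of r without SPD replicate 1 were not computed, so how far the likeness rests on it is not shown. PER1 had 97.2, 124 and 105 CPM in SPD replicates 1 to 3, against 150, 152 and 121 CPM in CK replicates 1 to 3. SPD replicate 1 was lowest and CK replicate 2 highest in both PER1 and XIPI. WAXY had 1755 CPM in SPD replicate 1 and 1840 to 2129 CPM in the other libraries, a narrower range than that of XIPI.

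**Figure D4:**
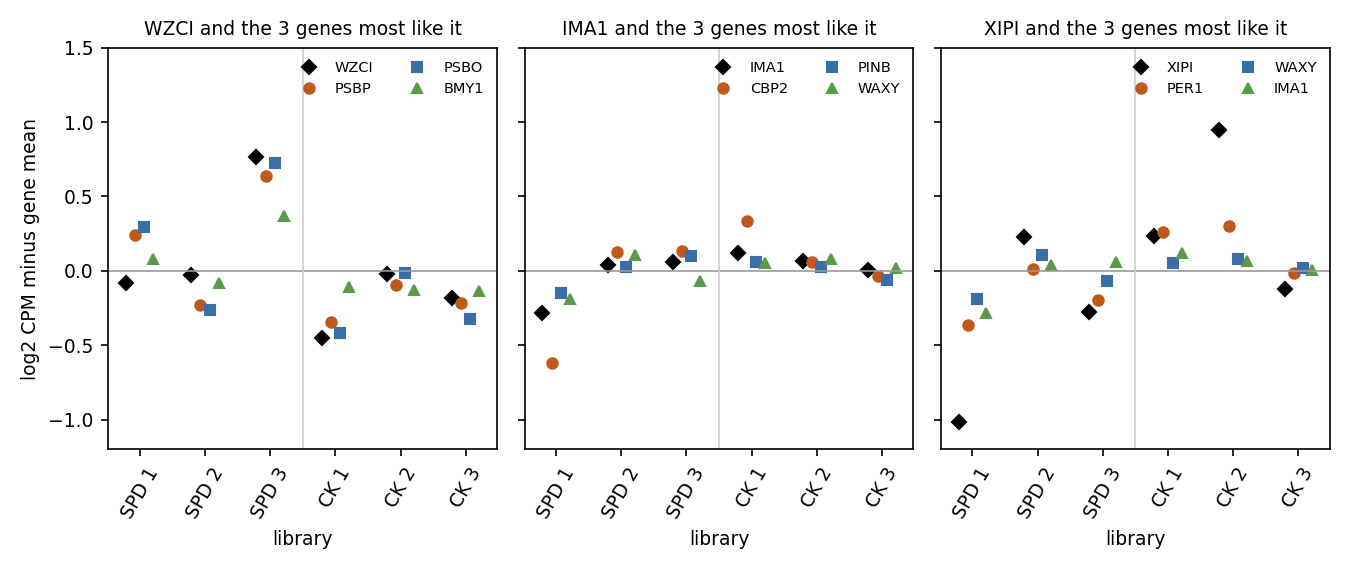
Log2 CPM minus the gene's mean over the 6 libraries (vertical axis) by library (horizontal axis, SPD left of CK), for each inhibitor gene (diamonds) and the 3 genes with a symbol whose pattern correlates best with it. WZCI and its set are highest in SPD replicate 3, IMA1 and XIPI are lowest in SPD replicate 1, and XIPI spans the widest range.

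None of the other listed genes for inhibitors and grain defence proteins was called. Of 32 symbols listed for that purpose 6 were rows of the table, namely THI1.1, THI1.2, TTHV, IHA-B1-2, PINA and PINB. Of these, 5 passed the filter on low counts and 0 were called, with 3 positive and 2 negative fitted values and a median log2 fold change of 0.014, against 0.0048 over all genes tested. IHA-B1-2, another alpha-amylase inhibitor gene by its symbol, had 3 to 12 counts per library and was not tested. THI1.1 and THI1.2, which encode purothionins, small membrane-active defence peptides, lay near even, with fitted values of -0.032 for THI1.1 and 0.014 for THI1.2 on the log2 scale (SE 0.11 each). Their coefficients of variation over the 6 libraries, 8.03% and 9.19%, lay beside the 9.01% of IMA1. The thionin gene TTHV varied more, at 25.2%, with 231 CPM in SPD replicate 3 and 116 to 183 CPM in the other libraries. PINA and PINB varied by 7.90% and 5.52%. As in WZCI, SPD replicate 3 was the highest library in 4 of the 5 tested genes, THI1.1, THI1.2, TTHV and PINA. Genes outside this list, such as AVNLA and PSBO, were also highest there, whereas AGP-L was lowest. The share over all genes was not counted, so no trait of defence genes is read from this.

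Of 8 symbols listed for enzymes that such inhibitors act on, or relatives of them, AMY1.1 and BMY1 were rows of the table and neither was called. AMY1.1, an alpha-amylase of the class that is made in the germinating grain, had 10 to 36 counts per library and a log2 fold change of -0.13 (95% interval -1.38 to 1.11). That interval holds a 2-fold change in either direction. BMY1, which is not a target of alpha-amylase inhibitors, had 496, 437 and 582 CPM in SPD replicates 1 to 3, against 432, 423 and 419.6 CPM in CK replicates 1 to 3. All 3 SPD values of BMY1 lay above CK, at a log2 fold change of 0.26 (SE 0.12, adjusted p = 0.997 by edgeR). In 9.48% of all genes tested the groups likewise did not overlap, in either direction.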

How the data were processed

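The deposited file held raw counts per gene identifier for 6 libraries, 3 SPD and 3 CK, which the authors left without normalisation. HISAT2 is named in the submitters' processing notes. The counting program, genome build, annotation and strand setting were not given in the sources used here. Reads of near-identical copies in the A, B and D subgenomes, and within the serpin and amylase inhibitor families, may be split or dropped, so counts of single copies are uncertain, as are antisense partners. Per the labels' protocols, RNA was extracted with TRIzol. Groups came from sample titles.

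Counts were analysed with edgeR 4.0.16 in R 4.3.3: filterByExpr defaults (minimum count 10, total 15), TMM scaling and the two-sided quasi-likelihood test, with Benjamini-Hochberg adjustment over 50136 genes and a threshold of 0.05. Fold changes, SE and intervals come from this fit, without adjustment of the intervals. All CPM of single genes and sums are scaled by library size alone; TMM factors were 0.978 to 1.01. Correlations used TMM-scaled log2 CPM with a prior count of 2. Ratios, sums and correlations were tested by exact permutation. Libraries differed beyond sampling noise (chi-square per degree of freedom 4.12 to 16.4). Named genes are the 3 inhibitor genes, the 3 genes with a symbol most like each, and members of the lists. Members and lists were chosen with earlier results of these data known. DESeq2 1.42.0 and limma 3.58.1 gave alternatives. Sequences and coordinates were not used here.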

Additional observations from a re-analysis of the deposited data

How the results depend on the processing

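Each of WZCI, IMA1 and XIPI kept its direction and stayed above an adjusted p of 0.05 in all 16 alternatives. These included 3 scalings, 2 filters, robust estimation, the replicate block, DESeq2, limma-voom and each of the 6 libraries left out. The remaining alternative left out the 100 most abundant genes, but kept WZCI and IMA1, which are among them. Apart from libraries left out, log2 fold changes ran from 0.43 to 0.49 for WZCI, -0.13 to -0.11 for IMA1 and -0.71 to -0.68 for XIPI. The count of called genes was 0, but 3 with the Wald test of DESeq2 (1547 below 0.05 without adjustment). Leaving out each library in turn, it ran from 0 to 1, the 1 without CK replicate 3. The summed level of the 3 genes, SPD minus CK, ran from -107 CPM without SPD replicate 3 to 1214 CPM without SPD replicate 1. Over all genes, same-numbered libraries did not deviate together (correlations 0.016, -0.058 and -0.029). With 3 libraries a group, such values cannot show whether same-numbered libraries share a plot or batch. With the replicate block 0 genes were called, 1445 at an unadjusted p under 0.05, and the log2 fold changes were 0.44 for WZCI, -0.13 for IMA1 and -0.71 for XIPI. IHA-B1-2 had too few counts to pass the filter, and the spread of the 3 inhibitor genes between libraries exceeds their counting error.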
